A study of Mus musculus with 2 samples.

Results

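The genes described here encode the enzymes that write, copy and remove DNA methylation: the DNA methyltransferases Dnmt1, Dnmt3a and Dnmt3b, the dioxygenases Tet1, Tet2 and Tet3, and Uhrf1, the partner of Dnmt1. They are 7 named genes of 21318 protein-coding genes with a known strand on the mm10 build. They were set against binding sites of ELF1, a transcription factor of the ETS family that recognises DNA around a GGAA core. The sites come from ChIP-seq, which sequences DNA brought down by an antibody, here against ELF1, in 2 biological replicates of CH12.LX, an immortalised female B-cell lymphoma line of the mouse strain B10.H-2aH-4bp/Wts. Both replicates form 1 group with no treatment named, the line is 1 donor's, and there is no second condition. A peak was assigned to a gene when its summit, the position of highest signal, lay inside the gene or within 50 kb of any of its annotated starts, and was called a promoter peak when the summit lay within 1 kb of a start.

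In mammals most DNA methylation sits on the cytosine of CpG pairs. Dnmt3a and Dnmt3b place it on unmethylated DNA, and Dnmt1 copies it to the new strand after replication, guided by Uhrf1, which binds hemimethylated CpG. The TET enzymes oxidise methylcytosine to hydroxymethylcytosine and further forms, which are lost by dilution or by base excision. In blood cells Dnmt3a and Tet2 are best known as genes that are recurrently mutated in leukaemia and lymphoma.

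Of the 7 genes, 6 had an ELF1 promoter peak in the optimal list, 29086 peaks derived from both replicates and filtered by a measure of replicate agreement. Tet1 had none. The same rule called 42.7% of all protein-coding genes. The signals of the 6 genes, on the peak caller's own scale, were moderate or low. Uhrf1 (109) and Dnmt1 (101) lay near the median of 97.6 over the strongest promoter peaks of all 9100 genes with one, and Tet2 (54.3), Tet3 (46.0), Dnmt3b (36.9) and Dnmt3a (24.1) lay below it. The lower quartile of all these genes was 47.3, and Tet3, Dnmt3b and Dnmt3a lay below that too.

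The sequences below show what lay under the summits at 3 of those promoters. They are read from the NCBIM37 genome, the build of the older mm9 peak list, on the strand of the gene, 5′ to 3′, within 50 bp of the summit, and trimmed to hold at most 30 bases of annotated exon. Capitals mark every GGAA core or its reverse complement TTCC. The first line is from chr9:20757288-20757364 (minus strand), the second from chr17:56443584-56443684 (plus) and the last from chr2:153475447-153475524 (plus).
Dnmt1: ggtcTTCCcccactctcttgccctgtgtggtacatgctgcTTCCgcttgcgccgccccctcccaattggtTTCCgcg
Uhrf1: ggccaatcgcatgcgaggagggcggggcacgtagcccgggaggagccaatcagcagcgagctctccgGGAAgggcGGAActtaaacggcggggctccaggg
Dnmt3b: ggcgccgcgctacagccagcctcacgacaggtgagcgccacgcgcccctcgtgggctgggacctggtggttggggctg

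Dnmt1 and Uhrf1 hold several cores, and the Dnmt3b stretch holds none. The 101 bp around the 3 summits contained 3 cores at Dnmt1, 2 at Uhrf1 and 0 at Dnmt3b. The nearest core was centred 8.5 bp from the summit at Dnmt1 and 18.5 bp from it at Uhrf1. GGAA is short: it occurred within 50 bp of 90.6% of all 8788 promoter summits on the mm9 list. The longer word CGGAAG, which contains GGAA, was found at 42.9% of those summits and, of these 3 genes, only at Dnmt1. CCGGAAGT, which contains both, was found at 11.6% and at none of the 3. Words were sought on both strands.

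Tet1 is shown for contrast, because it had no promoter peak. Its RefSeq promoter holds GGAA cores, as did 96% of all 32851 RefSeq promoter windows of 300 bp, so their presence does not set it apart. The sequence runs from upstream to 30 bases past the gene's 5′ end, chr10:62887440-62887574 on the minus strand of GRCm38.p6, from the RefSeq promoter table.
Tet1: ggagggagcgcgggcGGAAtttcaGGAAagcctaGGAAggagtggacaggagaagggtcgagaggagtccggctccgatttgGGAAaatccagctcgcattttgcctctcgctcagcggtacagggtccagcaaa

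This stretch holds 4 GGAA cores and 9 CpG pairs. A match of these letters is not a binding site, and their number was not tested against binding.

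The maintenance pair had the strongest promoter peaks. Dnmt1 spans chr9:20907206-20959888 on the minus strand of mm10 and has 3 annotated starts, at 20959888, 20952979 and 20952623. Its promoter peak, chr9:20952711-20953074, had signals of 101 in the optimal list, 40.6 in replicate 1 and 60.4 in replicate 2. The summit lay 86 bp downstream of the start at 20952979, and 6.995 kb inside the gene's 5′ end. By the RefSeq starts, ELF1 was thus found at an internal start of Dnmt1 in both replicates. The entry there was number 6054 of 300000 by signal in replicate 1 and number 5360 in replicate 2. Within 1 kb of the 5′ end at 20959888 there was no optimal peak. The nearest, 1839 bp upstream of it, was weak, with a signal of 21.1 and with 5.61 and 14.2 in the replicates, and was absent from the conservative list. On the mm9 list the promoter peak of Dnmt1 had a signal of 130. Its summit lay in an exon, 3 bp downstream of the start at 20757317. That is the most upstream Dnmt1 start in GENCODE M1, so by that annotation the start is not internal. Farther upstream a peak of signal 97.4 (48.4 in replicate 1, 49.5 in replicate 2) lay 23.6 kb from the gene, 6676 bp from the start of S1pr2, a sphingosine phosphate receptor gene. A peak of signal 123 in the mm9 list, likewise 6676 bp from a start of S1pr2, contained the full word CCGGAAGT.

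Uhrf1 spans chr17:56303337-56323486 on the plus strand, with starts at 56303337 and 56304313. Its main promoter peak, chr17:56304039-56304402, had signals of 109 in the optimal list, 47.6 in replicate 1 and 62.5 in replicate 2. The summit lay 92 bp upstream of the internal start at 56304313, and 0.884 kb inside the 5′ end. On the mm9 list the summit lay in an intron, 102 bp upstream of a GENCODE start, with a signal of 128. A further pair of overlapping peaks lay 795 and 525 bp upstream of the 5′ end, with signals of 21.5 and 20.3. Neither was as firm as the main peak: the first had 5.66 in replicate 1 and 16.5 in replicate 2, and the second 16.0 in replicate 2 with no entry within 100 bp in replicate 1. Of the 9096 genes with a promoter entry in the optimal list and both replicates, those closest to Uhrf1 in log2 signal over the 3 lists were Zfp639, Zmym6 and Rbm15, with Euclidean distances of 0.023, 0.024 and 0.026 and optimal signals of 110, 110 and 108.

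The de novo methyltransferases had weak promoter peaks. Dnmt3a spans chr12:3801559-3914443 on the plus strand, with starts at 3801559, 3806980, 3807160 and 3891744. Its promoter peak, chr12:3806196-3806559, had a signal of 24.1 in the optimal list, with 11.3 in replicate 1 and 12.5 in replicate 2 at entries within 100 bp. The summit lay 602 bp upstream of the start at 3806980. In replicate 2 the strongest entry within 1 kb of any start was number 30745, just outside the 29086 strongest, and the mm9 list had no promoter peak. The peaks around Dnmt3a were stronger than the one at its promoter. Upstream of the gene stood 4 of them, at 41.9, 30.3, 19.9 and 9.54 kb, with signals of 108, 48.0, 82.4 and 41.7. The farthest had 53.2 in replicate 1 and 54.8 in replicate 2, and the one at 19.9 kb 39.0 and 42.7. Both others were uneven, with 10.6 and 33.0 at 30.3 kb, and 12.0 and 29.8 at 9.54 kb. Inside the gene, peaks of 44.9 and 39.0 lay 33.0 and 54.3 kb from the 5′ end. The mm9 peaks inside Dnmt3a, with signals of 59.1 and 47.8, lay in introns. By the mm10 starts used, Dnmt3a was the nearest gene to all 7 of its peaks. With GENCODE starts, 4 peaks of the mm9 list upstream of Dnmt3a were closer to Dtnb, a dystrobrevin gene, at 2093 to 12480 bp.

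Dnmt3b spans chr2:153649411-153687730 on the plus strand, with starts at 153649411 and 153649449. Its promoter peak, chr2:153649456-153649819, had a signal of 36.9, and the summit lay 189 bp downstream of the nearer start. Replicate 1 had an entry of 20.1 there. Replicate 2 had none within 100 bp of that summit, and its strongest entry within 1 kb of a start, 18.3, lay 320 bp downstream. On the mm9 list the summit lay in exon sequence 121 bp from a start, with a signal of 39.8, and no GGAA core within 50 bp. The strongest peak within 50 kb of Dnmt3b, 127 (72.2 in replicate 1, 63.6 in replicate 2), lay 14 bp from the start of the neighbouring gene Commd7. A last peak, of 37.7, lay 39.6 kb upstream.

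**Figure D1:**
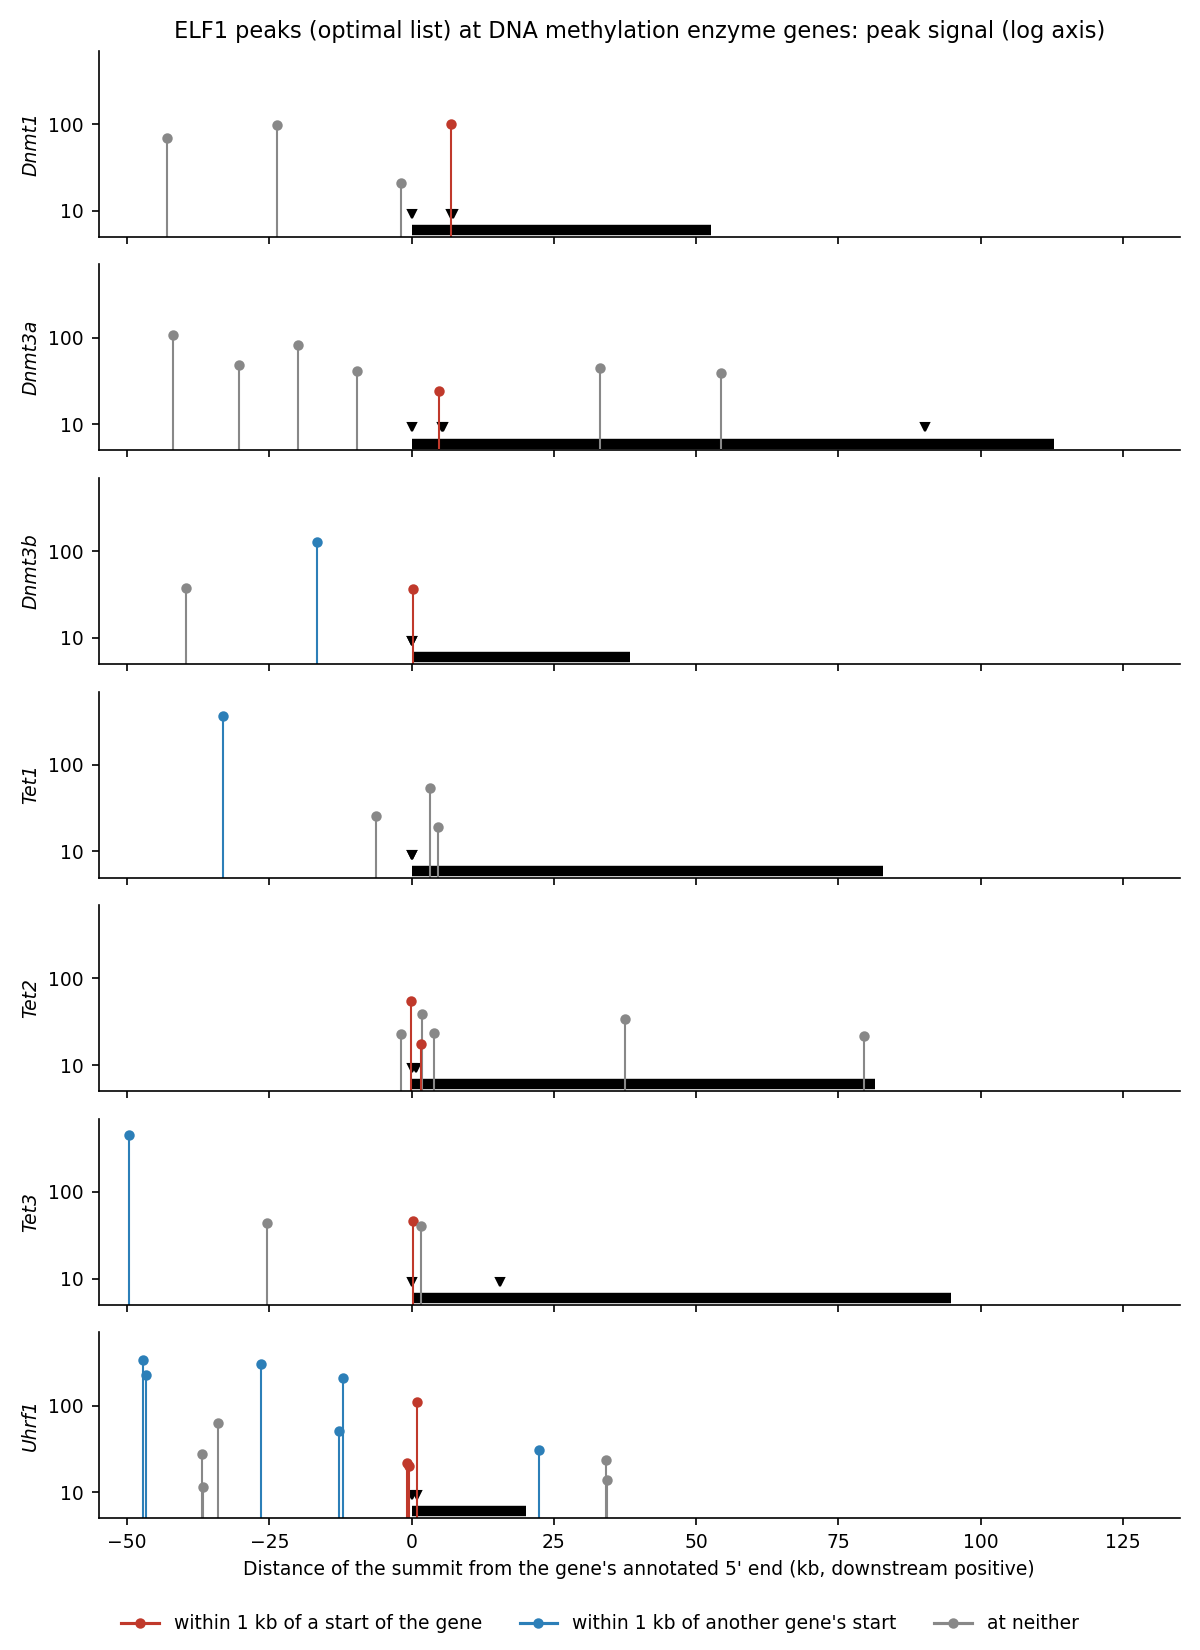
ELF1 peaks of the optimal list at the 7 genes, with distance from the annotated 5′ end in kb on the horizontal axis and peak signal on a log axis; the black bar is the gene, triangles are annotated starts, and colours show whether the summit lay at a start of the gene, at another gene's start or at neither. The tall blue peaks, up to 455 near Tet3 and 361 near Tet1, lay at neighbouring genes, and the red peaks at the 7 genes reached at most 109.

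The TET genes differed in where ELF1 lay. Tet2 spans chr3:133463677-133545136 on the minus strand, with starts at 133545136 and 133544390. Its strongest peak, chr3:133545105-133545468, had signals of 54.3 in the optimal list, 34.4 in replicate 1 and 20.7 in replicate 2. The summit lay 151 bp upstream of the 5′ end. Around the start stood 4 more peaks, with signals of 23.0 at 1881 bp upstream of the 5′ end and, at 834, 1054 and 3248 bp downstream of the internal start, 17.3, 38.5 and 23.6. The peaks at 834 and 1054 bp overlap each other, and the 1 kb limit for a promoter peak falls between them. The peak at 834 bp had 4.46 in replicate 1 and 11.7 in replicate 2, with no summit within 100 bp in the conservative list. Peaks of 34.0 and 21.9 lay 37.4 and 79.5 kb into the gene. The one at 79.5 kb had 7.26 in replicate 1 and 13.8 in replicate 2, and likewise no such summit in the conservative list. All 7 peaks of Tet2 had Tet2 as the nearest gene, and none lay at another gene's start. Its RefSeq promoter window at the internal start held 57 CpG pairs in 300 bp, a count that 0.152% of all 32851 windows reached. The summit of the promoter peak lay outside that window.

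Tet3 spans chr6:83362373-83457208 on the minus strand, with starts at 83457208 and 83441678. Its promoter peak, chr6:83456724-83457087, had signals of 46.0 in the optimal list, 22.6 in replicate 1 and 25.7 in replicate 2. The summit lay 302 bp downstream of the 5′ end, and a second peak of 40.9 (13.6 and 27.2 in the replicates) lay 1681 bp downstream of it. The start at 83441678 had no peak within 1 kb. Tet3 counted as bound at its promoter with the optimal list and RefSeq starts, but not with the mm9 list and GENCODE starts. GENCODE M1, used for the mm9 list, has no Tet3 start within 1 kb of a peak. Peaks of 59.0 and 43.4 in that list lay 15218 and 13848 bp upstream of its most upstream Tet3 start. On mm10 the promoter peak and the second peak lay 15228 and 13849 bp upstream of the internal start at 83441678. The distances were nearly equal in the 2 builds. The starts of the builds were not matched to each other, and why mm9 gave no promoter call was not tested. No coordinates were converted. The stronger mm9 peak is shown because its core lies in the letters GGAAGT, with the core centred 6.5 bp from the summit, at chr6:83406840-83406940 on the minus strand of NCBIM37.
Tet3: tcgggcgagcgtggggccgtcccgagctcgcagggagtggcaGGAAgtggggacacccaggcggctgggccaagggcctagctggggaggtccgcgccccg

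The strongest peak within 50 kb of Tet3, and of all 7 genes, had a signal of 455 (229 in replicate 1, 230 in replicate 2). It lay 15 bp from the start of Dguok, which encodes the mitochondrial deoxyguanosine kinase.

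Tet1 spans chr10:62804570-62887469 on the minus strand, with starts at 62887469 and 62887324. No entry of replicate 1, replicate 2 or the pooled list, each of 300000 entries that hold background as well as peaks, had its summit within 1 kb of these starts. The nearest entry lay 2602 bp away in replicate 1, with a signal of 4.61, and 1890 bp away in replicate 2, with 6.38, against the lowest listed signals of 2.99 and 3.45. In the pooled list the nearest entry lay 1145 bp away, with 6.34, against a lowest listed signal of 5.75. The optimal list placed 2 peaks inside Tet1, 3098 and 4577 bp downstream of the internal start, with signals of 54.0 and 19.1. The first was found in both replicates (23.6 and 36.0), and the second was entry 154888 in replicate 1 and entry 29449 in replicate 2. A peak of 25.8 (12.0 and 16.1 in the replicates) lay 6189 bp upstream of the RefSeq 5′ end. On the mm9 list 1 peak lay inside Tet1, in an intron, with a signal of 63.9. The strongest peak in reach, 361 (164 in replicate 1, 197 in replicate 2), lay 33.1 kb upstream, 52 bp from the start of the mitochondrial carrier gene Slc25a16. GENCODE M1 places Tet1 starts otherwise: on the mm9 list the peak 56 bp from Slc25a16 lay 21.5 kb from the nearest Tet1 start. The replicate and pooled lists were searched around the RefSeq starts only.

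The order of the 6 promoter peaks was only in part the same in both replicates. In replicate 1 the strongest entries within 1 kb of a start were 47.6 at Uhrf1, 40.6 at Dnmt1, 34.4 at Tet2, 22.6 at Tet3, 20.1 at Dnmt3b and 12.1 at Dnmt3a. In replicate 2 they were 62.5, 60.4, 20.7, 25.7, 18.3 and 12.5 in the same order of genes. Uhrf1 and Dnmt1 led in both and Dnmt3a was last in both, while Tet2 and Tet3 changed places. Signals of the replicates differed by an SD of 0.68 on the log2 scale over the 24844 optimal peaks that could be matched to an entry of each replicate, summits lying at most 100 bp apart. In the optimal list only the step from Dnmt1 to Tet2, 0.90 on the log2 scale, was larger than that. The steps from Uhrf1 to Dnmt1 (0.10), Tet2 to Tet3 (0.24), Tet3 to Dnmt3b (0.32) and Dnmt3b to Dnmt3a (0.62) were within it. This SD compares single replicates at the same peak, so it is only a rough scale for steps in the optimal list. Dnmt1 and Tet2 were close in replicate 1 (40.6 and 34.4) and far apart in replicate 2 (60.4 and 20.7). Replicate 2 gave 1.33 times the signal of replicate 1 at the median of all those peaks. At Uhrf1 and Dnmt1 the ratios were 1.31 and 1.49, close to that. The ratio at Tet2 was 0.602, which lies -1.67 SD from the median on the log2 scale.

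**Figure D2:**
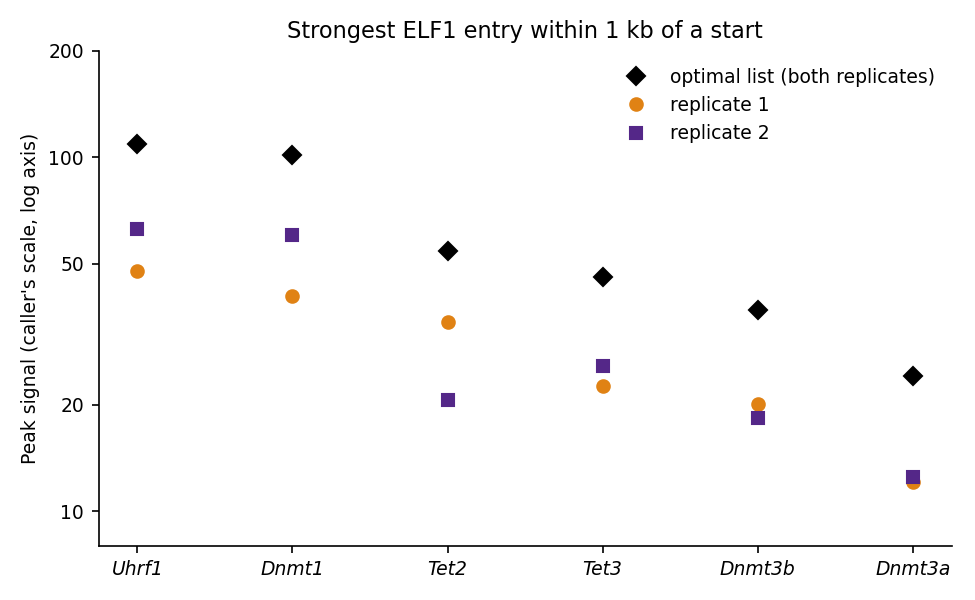
Signal of the strongest entry within 1 kb of a start, on a log axis, for the 6 genes with a promoter peak in the optimal list, with 1 point for the optimal list and 1 for each replicate; the optimal list has another scale than the replicates, so it is compared with them only by the order of genes. Uhrf1 and Dnmt1 stand apart from the other 4 in replicate 2 (62.5 and 60.4 against at most 25.7), and Tet2 is the gene with the widest gap between replicates.

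**Figure D3:**
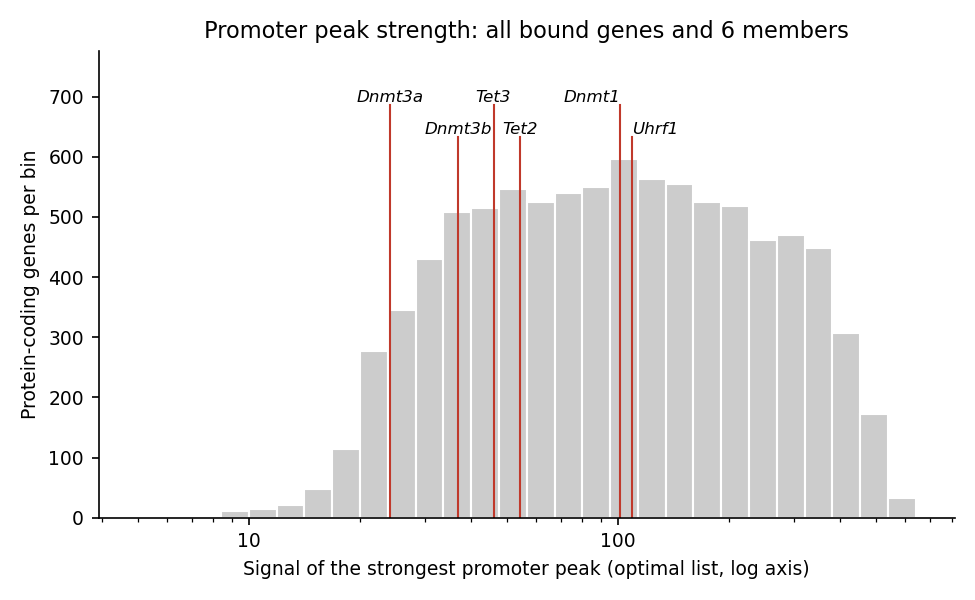
Number of protein-coding genes by signal of the strongest promoter peak in the optimal list (log axis, 9100 genes), with a red line for each of the 6 genes. Uhrf1 and Dnmt1 lie at the middle of the distribution, where 46.0% and 48.6% of genes were as strong or stronger, and Dnmt3a lies near its low end, at 94.4%.

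How many of the 7 genes counted as bound depended on the list and on the starts used. Among the 29086 strongest entries of replicate 1, 6 genes had a promoter entry, against 43.1% of all genes, and in replicate 2 there were 5, against 43.6%, Dnmt3a being the one lost. The conservative list, the stricter set of 27399 peaks, had 6, against 42.0%. With only the RefSeq 5′ end of each gene as its start, 4 genes remained, Dnmt3b, Tet2, Tet3 and Uhrf1, against 39.5% of all genes. The peaks at Dnmt1 and Dnmt3a lay at starts that are internal in RefSeq. The mm9 list of 18804 peaks had promoter peaks at Dnmt1, Dnmt3b, Tet2 and Uhrf1, 4 of 7, against 36.8% of all 22350 protein-coding genes of GENCODE M1. With the most 5′ GENCODE start of each gene alone, the same 4 remained, against 34.3% of all genes. Every one of the 7 genes had at least 1 peak inside it or within 50 kb of a start, as did 72.7% of all genes on mm10 and, for the mm9 list, 67.7%.

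Around the 7 genes stood 43 optimal peaks, which merge to 39 separate regions where peaks overlap. The median was 4 peaks per gene, against 2 over all protein-coding genes. Uhrf1 had 14, a number reached by 1.70% of genes, Dnmt3a and Tet2 had 7 each (15.1% of genes), Dnmt1, Tet1 and Tet3 had 4 each (35.9%) and Dnmt3b had 3 (46.5%). The count rises with gene length and with neighbouring genes, which were not adjusted for. Overlapping peaks were each counted, and several of the 14 at Uhrf1 overlap another of them. Uhrf1 was the nearest gene to only 3 of its 14 peaks. Uhrf1 is the shortest of the 7 (20.15 kb), and 6 of its 14 peaks lay at the starts of its neighbours Fem1a, Ticam1, Plin3 and Kdm4b, with signals of 331 and 224 at Fem1a, 305 at Ticam1, a Toll-like receptor adaptor gene, 206 and 51.4 at Plin3, a lipid droplet protein gene, and 30.7 at Kdm4b, a histone demethylase gene. For all 7 genes together and by the mm10 starts used, 9 peaks lay at a start of the gene itself, 9 at a start of another gene and 25 at neither. The peaks at other genes' starts had a median signal of 224, those at the genes' own starts 36.9 and the rest 38.5. Peaks of 1 locus are not independent, so these medians only describe the peaks listed. Of the 9 at other genes' starts, 6 lay around Uhrf1. Of the 9 at the genes' own starts, 3 were at Uhrf1 and 2 at Tet2, among them weak ones of 21.5, 20.3 and 17.3. The nearest start belonged to the gene itself for 25 of the 43 peaks, 15 lay inside the gene, 25 upstream and 3 downstream. The split depends on the annotation. With GENCODE starts, 17 of the 35 peaks of the mm9 list lay at a protein-coding start, only 4 of them at the gene itself.

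The peaks recurred between replicates about as often as peaks elsewhere. Of the 43, 38 (88.4%) had a summit within 100 bp in both replicates' full lists, against 85.4% of all optimal peaks. Those without a match in both were the promoter peak of Dnmt3b and 4 peaks near Uhrf1, with signals of 11.4 to 27.7 at Uhrf1. Replicate 2 had the higher signal at 28 of the 38 (73.7%), as at 78.8% of all matched optimal peaks. The ratio of replicate 2 to replicate 1 ran from 0.528 to 3.11 with a median of 1.25, and the SD of its log2 was 0.65.

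**Figure D4:**
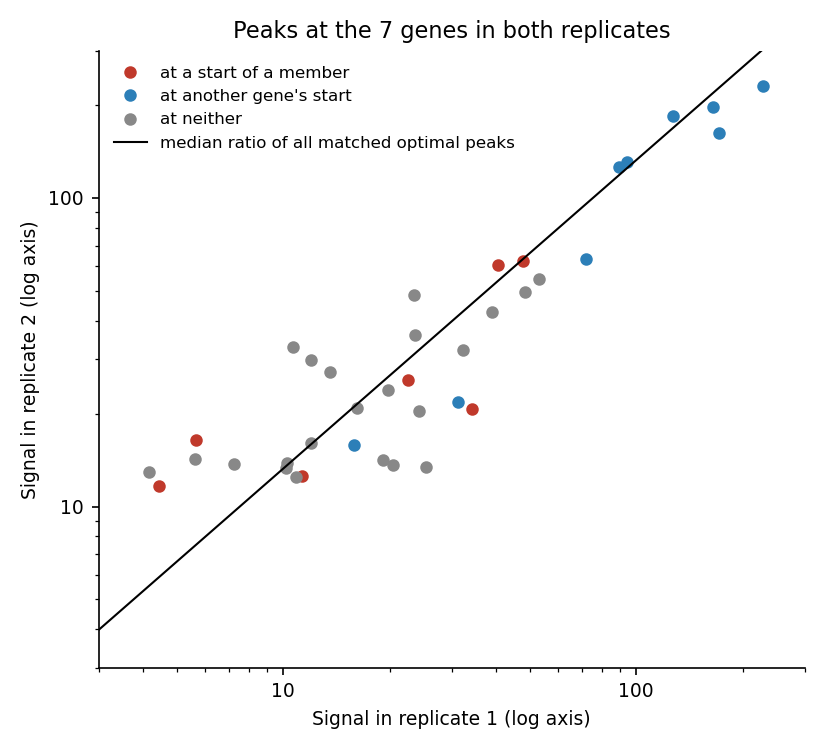
Signal in replicate 2 against replicate 1, both on log axes, for the 38 peaks at the 7 genes that both replicates hold; the line is the median ratio of 1.33 over all matched optimal peaks. The ratios run from 0.528 to 3.11, and 28 of the 38 points had the higher signal in replicate 2.

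The GGAA core was about as frequent at these peaks as at peaks elsewhere. On the mm9 list, 35 peaks lay inside the 7 genes or within 50 kb of a start, and 31 of them (88.6%) had GGAA within 50 bp of the summit. The share was 90.6% for all promoter peaks and 94.3% for all other peaks. CGGAAG was found at 8 of the 35 (22.9%), against 42.9% of all promoter peaks and 19.8% of the others. At the 17 of the 35 that lay at a protein-coding start it was found at 6, and at the other 18 at 2. CCGGAAGT was found at 2, the peak near S1pr2 and one at Fem1a. Over the RefSeq promoter windows of mm10, which run from 250 bp before to 50 bp after a start, 11 of the 12 windows of the 7 genes, some of which overlap, held GGAA, against 96.0% of all windows. None of the 12 held CGGAAG or CCGGAAGT, against 16.9% and 3.89% of all windows. Of the genes' strongest promoter summits, only that of Uhrf1 lay inside 1 of these windows. The windows therefore do not describe the sequence under the other summits, and the mm9 promoter summit of Dnmt1 did hold CGGAAG. CpG counts in these 12 windows ran from 2 at the 5′ end of Dnmt1 to 57 at Tet2, with 33 at the internal start of Uhrf1, against a median of 7 over all windows.

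Other genes of DNA methylation were taken from 7 lists by role, 47 genes in all, of which 35 (74.5%) had a promoter peak in the optimal list, against 42.7% of all genes. Their signals had a median of 76.6, and 13 of the 35 were above Uhrf1. Among partners of maintenance methylation 6 of 7 were bound, with the highest signals at Zbtb24 (553), a zinc finger gene mutated in an immunodeficiency with hypomethylated satellite DNA, at Pcna (133), the replication clamp, and at Dmap1 (86.9), a Dnmt1-binding protein. Cdca7 had no promoter peak. The Zbtb24 peak had 268 in replicate 1 and 285 in replicate 2, and 0.220% of bound genes were as strong. Pcna shares its peak with the promoter of the neighbouring gene Cds2. Uhrf2, the paralog of Uhrf1, had 73.5 (27.6 and 42.0 in the replicates). Among partners of de novo methylation 3 of 7 were bound, the histone methyltransferase genes Setdb1 (271) and Setd2 (53.9) and the corepressor gene Trim28 (86.4). Dnmt3l, the catalytically inactive cofactor of Dnmt3a and Dnmt3b, and Nsd1, Zfp57 and Dppa3 had none.

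In the list of readers of methylated CpG and their relatives, 7 of 8 genes were bound. The highest signals were at Mbd4 (289), which encodes a glycosylase, Mbd3 (272), a family relative, and Zbtb33 (151), which encodes Kaiso. Mbd4 shares its peak with Ift122, and Zbtb4 had no promoter peak. Genes that excise and repair modified cytosine were bound in 9 of 11 cases, led by the uracil glycosylase gene Smug1 (430), then Neil2 (76.7) and Gadd45b (59.5), with none at Neil1 and Neil3. Tdg, the glycosylase that removes the products of TET oxidation, had the weakest peak of the list, 15.2, with no entry within 100 bp in replicate 1. Of genes for TET partners and for supply of their cofactor, 5 of 8 were bound, with the highest signals at Dcaf1 (391), D2hgdh (313) and Idh1 (239), and none at Cxxc4, Ogt and Idh2. The D2hgdh product removes hydroxyglutarate, an inhibitor of TET enzymes, and Idh1 makes their cosubstrate. Idh1 shares its peak with Pikfyve. Supply of the methyl donor had 4 of 5, among them Mat2b (431) and Mtr (66.9), with none at Mat2a, the catalytic subunit. Trdmt1, a relative of the methyltransferases that acts on tRNA, had a peak of 56.6. With the 5′ end alone as a gene's start, 30 of the 47 genes were bound, against 39.5% of all genes, and Smug1, D2hgdh and Dcaf1 were among those lost. The conservative list gained Ogt and lost Cxxc5. Among the strongest entries of the replicates, Cdca7 and Ogt had a promoter entry in both, Mat2a and Idh2 in replicate 1 only, and Zbtb4 and Neil3 in replicate 2 only.

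**Figure D5:**
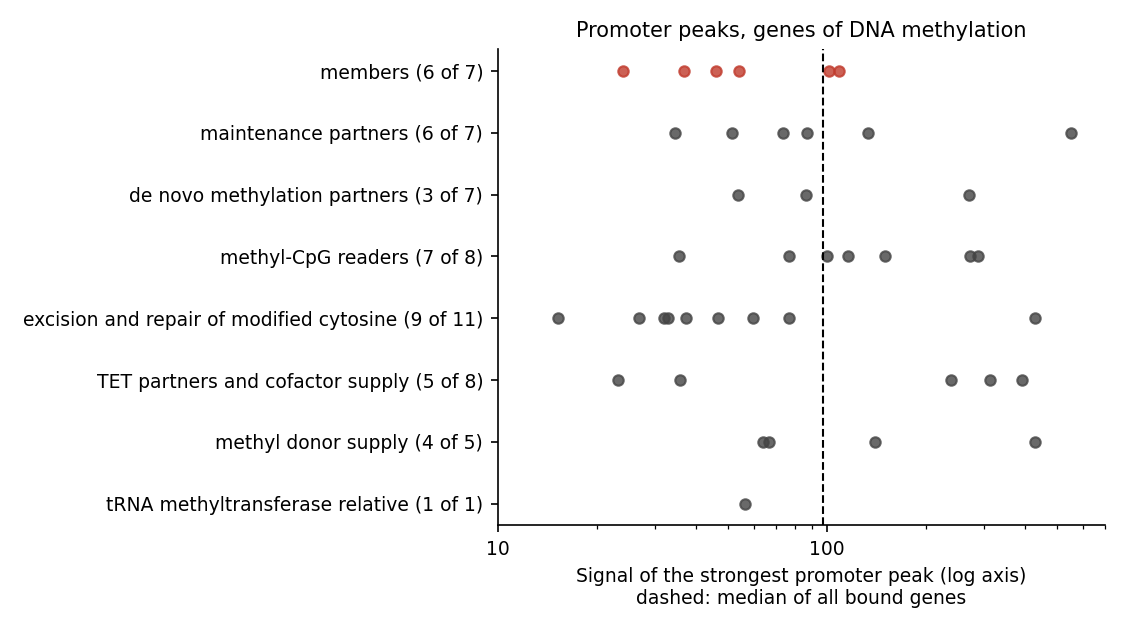
Signal of the strongest promoter peak in the optimal list (log axis) for each bound gene, by role, with the number bound of the number matched beside each list; the dashed line is the median of all bound genes, 97.6. The 7 methylation enzymes reach at most 109, and 6 of the 7 other lists hold at least 1 gene above the dashed line.

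Marker genes were used to check the labelled cell type, although a peak is no measure of expression. Of 8 B cell markers 8 had a promoter peak (signals of 16.0 to 257), of 8 T cell markers 1 (Lck, 35.6) and of 8 hepatocyte markers 0. Depth is unknown from peak lists, so a missing peak says only that none was listed.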

How the data were processed

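Per the deposited README text, the authors made each replicate's list, and a pooled one, from mm10 alignments against a control. The optimal and conservative lists keep peaks that pass a threshold of IDR, a measure of replicate agreement, and the mm9 list rests on both replicates. For aligner, caller and their versions, the entry is "not given in the sources used here". Peak signal (column 7) is as the authors deposited it, of unstated scale, and was compared only within a list or as a ratio between replicates.

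Gene bounds and starts on mm10 came from RefSeq tables (GRCm38.p6), with some strands from GENCODE M1. Of 21318 genes, 8318 (39.0%) had more than 1 start. For mm9, GENCODE M1 and the NCBIM37 genome were used, and no coordinates were converted. Replicate entries matched at summits within 100 bp. The strongest 29086 entries of a replicate equal the optimal list in number. With 1 group, no test between samples was made.

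The genes and lists were chosen with earlier results of these data known. The rule named the 7 genes, the 3 strongest and all unbound genes of each other list, genes sharing a peak, and the 3 genes closest to Uhrf1 in signal. Uhrf2, Tdg, Lck and the neighbours S1pr2, Dtnb, Commd7, Dguok, Slc25a16, Fem1a, Ticam1, Plin3 and Kdm4b were named after their values were seen. A gene that the rule names and a promoter sequence are not reported here. Promoter assignment was checked on simulated summits over 21318 genes, and 0 calls differed from an exhaustive search. Python 3.11.15, numpy 2.4.6 and pandas 2.3.3 were used. Alternatives varied windows, lists, starts, match distance and replicates.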

Additional observations from a re-analysis of the deposited data

How the results depend on the processing

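Of 39 alternative settings of the main counts, 30 stayed within 1.5 times the main count and 9 did not. The 43 optimal peaks at the 7 genes became 26 with a 20 kb window, 68 with 100 kb, 25 when only peaks nearest to the gene counted and 23 in the stronger 50% of the list. The 35 mm9 peaks became 18, 58 and 15 with 20 kb, 100 kb and the stronger 50%. These changes follow from counting a smaller or larger area or fewer peaks. The number of genes with an mm9 promoter peak went from 4 to 2 in the stronger 50%, leaving Dnmt1 and Uhrf1, against 27.0% of all genes, and CCGGAAGT from 2 peaks to 1 within 25 bp. Genes with an optimal promoter peak numbered 4 to 6 over 7 alternatives, among them 5 within 500 bp (40.4% of all genes), 6 within 2 kb (44.8%) and 4 in the stronger 50% (34.5%). Without 1 replicate they numbered 5 to 6, and the peaks at the genes 48 to 51. Tet1 had no promoter peak under any of these settings, windows of 2 kb included. For the optimal list, the setting with 1 start per gene was added after the data were seen. Matches in both replicates ranged from 28 within 50 bp to 43 by overlap, and the share over all optimal peaks was not computed for these settings. No paired analysis was possible because there is 1 group. Read depth is unknown, which limits what a missing or weak peak shows.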
